A study of Mus musculus with 3 samples.

Results

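The comparison set swimming mice whose food held Chlorella, a unicellular green alga, against swimming mice on normal food, and it covered the 15508 genes that were measured on both arrays, of 27665 genes on the array. A gene was counted as measured where its probe was well above background, by the scanner software's own flag, on both. The labels describe male mice, 6 weeks of age, whose muscle was taken after 14 days, and the RNA of 10 mice was pooled for each array. One group swam and had food with 0.5% Chlorella powder, a further group swam on normal food, and the remaining group, used here as a level beside the others, had normal food and did not swim. The labels name neither the strain, nor which muscle was sampled, nor the swimming schedule. RNA was labelled with the green dye Cy3 and each group was hybridised to 1 single-colour array, on which a probe's brightness measures its transcript. With 1 pooled array per group no test was possible and the differences have no replicate check, so sizes are given, and spread between mice cannot be seen.

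Skeletal muscle is made of long multinucleate fibres, with blood vessels, nerve, connective tissue, fat and resident macrophages between them, and a piece of muscle can carry neighbouring bone, marrow, tendon or fat with it. Glucocorticoids, adrenaline, contraction and feeding each switch on short-lived transcripts in muscle within a short time, among them metallothioneins, period genes, NR4A receptors and AP-1 factors. Chlorella powder brings protein, chlorophyll, carotenoids, iron, folate and cobalamin-like compounds, and gene lists for the handling of these were therefore described as well. In bulk tissue, fewer cells of a type and less RNA per cell cannot be told apart.

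Values are given on the following scales. A scaled signal is the scanner's processed intensity after each array was brought to the same 75th percentile. A log2 ratio is the Chlorella value minus that of the normal food swimming array, so that a positive one means a higher signal with Chlorella. The error beside it, with a median of 0.20, comes from the scanner software. For the median probe it was 10.0% of the signal on every array, and it is not a spread measured between spots, arrays or mice. Over the 3 arrays, between 23448 and 24857 of 41169 probes were well above background and none was saturated. The 12 markers of skeletal muscle fibres were well above background on every array, with summed scaled signals of 1.72e+06 without swimming, 1.47e+06 with swimming on normal food and 1.89e+06 with Chlorella. The normal food swimming array, against which every ratio here is taken, stood apart in markers of marrow and kidney: neutrophil markers summed to 4539, 76184 and 963 on the nonswimming, swimming and Chlorella arrays, and kidney markers to 1715, 10663 and 2523. A lower value with Chlorella in blood, bone, fat or kidney lists is therefore a difference from an array on which many of these genes were at their highest. Whether other tissue was in that pooled sample was not tested.

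Most genes differed little between the swimming arrays. Of the 15508 measured genes, 93.8% lay within 2-fold, and the median log2 ratio was 0.08 with quartiles of -0.16 and 0.27. By 2-fold or more, 212 genes were higher with Chlorella, which is 1.37%, and 754 were lower, which is 4.86%. The lower side also reached further: 230 genes were at least 4-fold lower and 57 at least 8-fold lower, against 21 and 1 on the higher side. A further 417 genes were well above background on the normal food array alone and at least 2-fold lower by a bound, the bright signal against the dimmest one the Chlorella array could measure, and 168 were bounded the other way. The higher genes were dim, with a median scaled signal of 25.2 on normal food and 64.7 with Chlorella, and 82 of them had 50 or more on normal food. The lower genes had medians of 131 and 32.3. Without the filter on dim probes the split was 1233 higher and 1998 lower, so that 61.8% of these genes were lower in place of 78.1%, and the median of all genes moved by 0.12. Among 171 genes past 2-fold with several measured probes, 14 had a probe of the opposite sign.

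**Figure D1:**
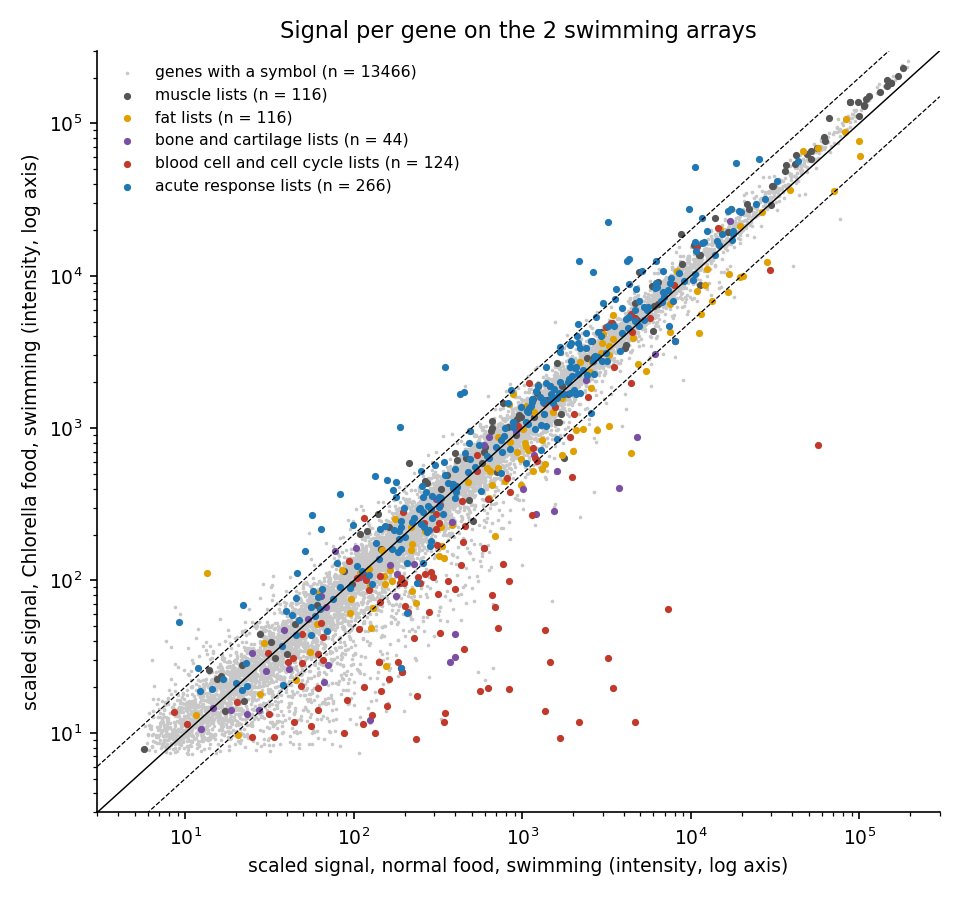
Scaled signal of 13466 measured genes with a symbol on the normal food swimming array (horizontal, log axis) and the Chlorella swimming array (vertical, log axis), 1 point per gene, with equality drawn solid and 2-fold dashed. Of the 124 members of the blood cell and cell cycle lists 74 were at least 2-fold lower and lie below the lower dashed line. Of the 266 members of the acute response lists 36 lie above the upper one.

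Genes of blood cells were lower by the largest factors with Chlorella. Over the blood cell and cell cycle lists together the median log2 ratio was -1.25, and 74 of 124 measured genes were lower by 2-fold or more, against 1 higher. Among the blood cell lists the lowest medians were those of eosinophils and basophils, secondary and tertiary granules, and mature neutrophils. Mature B cells (-2.54), platelets (-1.76), primary granules (-1.45) and erythroid genes (-1.002) followed, while B cell precursors had 0.16. The nonswimming array is given first in each series of 3 values, and it and the Chlorella array both stand in contrast to the same normal food swimming array.

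Neutrophils fill their granules in steps while they mature in the marrow. Of the genes of primary granules, made first, 7 of 7 measured were at least 2-fold lower, with a median of -1.45, or -2.63 with 6 more members at their bound. Mpo, myeloperoxidase, had scaled signals of 246, 3215 and 30.9 on the nonswimming, swimming and Chlorella arrays. It was thus high on the swimming array alone, and its log2 ratio was -6.70 ± 0.22. Elane, neutrophil elastase, went from 150 on normal food to a signal not well above background with Chlorella, at least 20.9-fold lower, and Ms4a3, a marker of granulocyte precursors, was at least 32.5-fold lower. In the list of secondary and tertiary granules, made later, 8 of 9 measured genes were at least 2-fold lower, with a median of -3.75. Ltf, lactoferrin, had scaled signals of 196, 3437 and 19.7 on the nonswimming, swimming and Chlorella arrays, a 175-fold difference between the swimming arrays. The scanner file places its probe at 110738071 to 110738130 of chromosome 9, without naming a build. Lrg1, the exception in that list, is also made outside neutrophils and had 2619 and 2759. The median of mature neutrophil genes was -3.37, or -2.19 with 12 more members at their bound, and 5 of 6 measured genes were past 2-fold. Retnlg, a resistin-like secreted protein, had 563 on normal food and 18.9 with Chlorella, while Csf3r, the receptor for granulocyte colony-stimulating factor, was at least 9.0-fold lower.

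An eosinophil granule gene, Prg2, showed the lowest ratio among measured genes with a symbol whose probes had 1 sign. In the eosinophil and basophil list only 3 genes were measured, all at least 2-fold lower. Their median was -5.00, or -4.26 with 8 more members at their bound. Prg2, major basic protein, had scaled signals of 200, 4661 and 11.8 on the nonswimming, swimming and Chlorella arrays. That is 395-fold lower with Chlorella, at a signal close to the lowest that the Chlorella array could measure, 7.19. Ear1, an eosinophil ribonuclease, had 629 and 19.6 on the swimming arrays, a log2 ratio of -5.00 ± 0.24. Its relative Ear6 was at least 47.4-fold lower and Epx, eosinophil peroxidase, at least 24.3-fold lower. Ear1, Ear6 and Ear10 are near-identical copies, so their probes may take up each other's transcripts. Mast cells, resident in connective tissue, differed far less: 2 of 9 measured genes were at least 2-fold lower, with a median of -0.63. Cpa3, the mast cell carboxypeptidase, had 234, 240 and 105 on the 3 arrays, while Kit, their growth factor receptor, had 44.0, 63.5 and 52.3.

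Mature B cell genes were lower, while the precursor genes were divided. All 7 measured genes of mature B cells were at least 2-fold lower, with a median of -2.54, and 9 more were at least 2-fold lower by their bound. Cd79b, the signalling chain of the B cell receptor, had scaled signals of 65.5, 718 and 49.0 on the nonswimming, swimming and Chlorella arrays, and Ms4a1, which encodes CD20, was at least 30.2-fold lower with Chlorella. Among precursors, Vpreb3, part of the surrogate light chain complex, had 449 and 35.7 on the swimming arrays, and Dntt, the terminal transferase that edits receptor joints, 113 and 11.4. In the measured precursor list, however, 5 of 9 genes were above 0 and 2 were at least 2-fold lower, with a median of 0.16, which was -0.55 with 5 more members at their bound. Ebf1 (113 and 111), Bach2 (105 and 104), Sox4 (116 and 257), Cd93 (3121 and 4629) and Akap12 (1095 and 1970), which other cells also make, were not among the lower genes. Its median was also below 0 with no filter and with the mean over probes.

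Platelet genes were lower as a group, with 7 of 10 measured genes past 2-fold and a median of -1.76. Ppbp, the platelet basic chemokine, had scaled signals of 49.4, 832 and 19.3 on the nonswimming, swimming and Chlorella arrays. Treml1, a receptor of platelet alpha granules, followed with 347 on normal food and 13.5 with Chlorella. Both were low on the Chlorella array, with log2 ratios between the swimming arrays of -5.43 ± 0.24 and -4.68 ± 0.29. Pf4, platelet factor 4, is also made by tissue macrophages and differed less, with 1246, 1921 and 875.

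Red cell precursor genes were lower in part, while most haem synthesis genes lay within 2-fold. In the list of erythroid membrane and transcription genes, 6 of 11 measured genes were at least 2-fold lower and none was higher by that size. Its median was -1.002, or -2.66 with 12 more members at their bound, but 0.42 under the stricter filter on dim probes. Slc4a1, the anion exchanger of red cells, had scaled signals of 125, 1358 and 47.2 on the nonswimming, swimming and Chlorella arrays. Hemgn, a nuclear factor of red cell precursors, was at least 60.4-fold lower with Chlorella, Rhd, the Rh blood group protein, at least 56.3-fold, and Klf1, the erythroid Krüppel-like factor, at least 35.1-fold. Haem synthesis, by contrast, had 1 of 12 genes past 2-fold and a median of -0.08. That 1 gene was Alas2, the erythroid form of the first enzyme of the pathway, with 717, 1975 and 474 on the 3 arrays. The form used in other tissues, Alas1, lay on the other side, with 10945 on normal food and 15565 with Chlorella, while Fech, ferrochelatase, had 4683 and 5208, and its probes differed in sign. The pair of Alas genes thus showed opposite signs, -2.06 ± 0.20 and 0.51 ± 0.20.

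Genes of dividing cells were lower, and those of mitosis by more than those of DNA replication. In the mitosis list 16 of 18 measured genes were at least 2-fold lower, none was above 0 and the median was -2.38. In the DNA replication list 10 of 23 were past 2-fold, with a median of -0.86. Mki67, the proliferation antigen Ki-67, had scaled signals of 84.5, 835 and 98.9 on the nonswimming, swimming and Chlorella arrays. Ccnb2, cyclin B2, had 91.6, 688 and 66.7, and Birc5, survivin, had 92.3, 657 and 80.2. These 3 genes were high on the swimming array, and the signals of the other 2 arrays lay close to each other. Of the replication genes, Mcm6, a subunit of the replicative helicase, had 282, 1148 and 269, whereas Mcm2, a subunit of the same helicase, had 206, 321 and 237. A ratio of -0.44 ± 0.20 for Mcm2 against -2.09 ± 0.20 for Mcm6 shows that subunits of 1 complex were not measured at 1 ratio. Among replication-dependent histones 1 of 19 was past 2-fold, H1f5, with 96.5 and 17.0 on the swimming arrays.

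Promoters of the mitosis and erythroid genes are shown for the letters that members of these lists share. The windows are the 250 bases before the start of the gene in the RefSeq table of build GRCm38.p6, on the gene's strand, and each motif was searched on both strands. Known elements are the CCAAT box (CCAAT) and the cell cycle homology region (TTTGAA) of mitotic genes, and the GATA site (AGATAA or TGATAA) of erythroid ones. For Ccnb2 the capitals mark 3 CCAAT boxes, 87, 54 and 21 bases before the start, and 1 homology region at 167. For Alas2 they mark 1 GATA site, on the opposite strand, at 86.
Ccnb2, chr9:70421555-70421804, minus strand: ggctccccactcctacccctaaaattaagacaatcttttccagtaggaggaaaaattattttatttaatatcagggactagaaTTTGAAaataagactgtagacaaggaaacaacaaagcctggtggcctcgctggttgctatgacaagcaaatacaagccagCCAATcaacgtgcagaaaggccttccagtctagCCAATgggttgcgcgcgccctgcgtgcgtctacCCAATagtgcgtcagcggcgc
Alas2, chrX:150547167-150547416, plus strand: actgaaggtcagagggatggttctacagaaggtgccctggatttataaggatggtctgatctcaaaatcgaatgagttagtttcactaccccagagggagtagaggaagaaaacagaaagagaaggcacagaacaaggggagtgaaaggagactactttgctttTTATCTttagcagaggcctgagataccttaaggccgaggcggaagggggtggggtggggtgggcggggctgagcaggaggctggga
Shares count genes with a motif in any of their promoters in the table, so genes with several promoters have more chances of a match. CCAAT was found for 19 of 23 genes of the mitosis list with an entry, 82.6%. It was found for 39.6% of the 10706 measured genes with an entry, and for 37.5% of all 27025 genes in the table. In the other lists searched its share ran from 28.6% for metallothioneins and zinc to 60.6% for glucocorticoid-responsive genes. DNA replication genes had 57.9%. The homology region was found for 43.5% of the mitosis genes against 13.1% of measured and 18.3% of all genes. A GATA site was found for 11 of 18 erythroid genes, 61.1%, against 11.6% and 18.8%. A match is a description of the letters, not evidence of a bound factor.

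Tissue immune cells were lower to a smaller and more even degree. Macrophage and monocyte genes had 9 of 25 at least 2-fold lower, none above 0 and a median of -0.86. Adgre1, the macrophage surface protein F4/80, had scaled signals of 403, 361 and 185 on the nonswimming, swimming and Chlorella arrays. Ctss, the endosomal protease cathepsin S, had 1554, 1761 and 898. Unlike the granulocyte genes, these were at similar signals on the nonswimming and swimming arrays and lower on the Chlorella array. Ccr2, the receptor that brings monocytes into tissue, had 65.4, 89.3 and 24.0, and Marco, a scavenger receptor, had 18.6, 121 and 14.6. Cd163 of resident macrophages, with 222 and 219 on the swimming arrays, differed by less than the scanner error.

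Antigen presentation differed by class. For class II, which displays peptides to helper T cells, none of 9 measured genes was past 2-fold but every one was below 0, with a median of -0.73. H2-Ab1, a beta chain of class II, had scaled signals of 2531, 2422 and 1347 on the nonswimming, swimming and Chlorella arrays, and Ciita, the master activator of the class, was at least 3.2-fold lower. Class I genes had a median of -0.30 over 16 genes, with none past 2-fold, and H2-K1 had 8112, 8273 and 6260. In the interferon-stimulated list 3 of 30 were at least 2-fold lower, with a median of -0.42. Rsad2, the antiviral protein viperin, had 92.3, 236 and 66.0 on the 3 arrays and Ifi27l2a had 5739, 18100 and 7293, both highest with swimming on normal food, while Ifit2 had 52.0 and 49.3 on the swimming arrays. Complement genes had a median of -0.50 over 19, and none of them was past 2-fold. C1qa, C1qb and C1qc, the chains of C1q, had close ratios of -0.53, -0.48 and -0.61.

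Chemokine and T cell lists were led by a few members. Of chemokines and their receptors, 11 of 27 measured genes were at least 2-fold lower, none was higher by that size and the median was -0.72. Ccl5, a chemokine of T cells, had scaled signals of 82.8, 251 and 88.8 on the nonswimming, swimming and Chlorella arrays, whereas Cxcl12, made by stromal cells, had 4587, 5373 and 4856. In the T and NK cell list 4 of 14 were at least 2-fold lower. Nkg7, of cytotoxic granules, had 199 and 14.0 on the swimming arrays, and Cd3d, a chain of the T cell receptor complex, was at least 10.2-fold lower. Cd3e, another chain of that complex, had 21.2, 22.0 and 18.8 and so did not show this. The median of the T and NK list was -0.31, and it was 0.07 with normexp background correction and 0.11 with the stricter filter.

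Bone and cartilage genes were lower in part, and collagens were not among the lower genes. Over the bone and cartilage lists the median was -0.66, with 15 of 44 measured genes past 2-fold on the lower side and 1 on the higher. Bglap, osteocalcin, had scaled signals of 818, 3752 and 407 on the nonswimming, swimming and Chlorella arrays, a log2 ratio of -3.20 ± 0.20. Spp1, osteopontin, had 1541, 4788 and 873, and Acp5, the acid phosphatase of osteoclasts, 425, 1200 and 271. In cartilage, Col2a1, its main collagen, had 892, 1537 and 288, and Ucma, a matrix protein of growth cartilage, 64.6, 125 and 12.1. All 5 were highest on the swimming array and lower with Chlorella than without swimming. Other bone genes did not follow: Alpl and Phospho1, phosphatases of mineralisation, had 596 and 772 and 64.1 and 79.3 on the swimming arrays, Dmp1 of osteocytes had 165 and 125, and Sost of osteocytes 14.6 on both. Of 21 measured collagen genes none was past 2-fold, 18 were above 0 and the median was 0.22, and Col1a1 had 17183 on normal food and 22900 with Chlorella. The list of small proteoglycans and tendon ran from -1.17 to 0.52 with a median of -0.06 and 1 of 24 genes, Omd, past 2-fold on the lower side. Scx, the tendon transcription factor, had 1196 and 1294 and Tnmd, tenomodulin, 806 and 857, while the matrix proteins Comp and Thbs4 had 6128 and 3079 and 7728 and 11091.

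Fat cell genes and the enzymes that make fatty acids were lower with Chlorella. In the adipocyte list 7 of 23 measured genes were at least 2-fold lower and none was higher by that size, with a median of -0.90. Adipoq, the hormone adiponectin, had scaled signals of 4724, 11106 and 4198 on the nonswimming, swimming and Chlorella arrays. Plin1, the coat protein of lipid droplets, had 1840, 5430 and 2387, and Klb, the co-receptor for FGF21, 40.5, 221 and 85.0. Each was highest on the swimming array. Fabp4, a lipid carrier, with 99300 and 76871 on the swimming arrays, and Car3, with 38696 and 36337, differed less.

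Fatty acid synthesis was lower from citrate export to chain elongation. Of 23 measured genes 8 were at least 2-fold lower, none was higher by that size and the median was -0.56. Slc25a1, which carries citrate out of mitochondria, had scaled signals of 435, 2780 and 968 on the nonswimming, swimming and Chlorella arrays. Acly, which splits that citrate, had 284, 1989 and 711, and Thrsp, a regulator of the pathway, 3265, 16572 and 7780. Fasn, the synthase itself, had 15411, 100459 and 60668, and its ratio of -0.73 ± 0.20 was short of 2-fold. Elovl6, which lengthens the product, had 242, 3255 and 1034. In these 5 genes the Chlorella array lay between the nonswimming and the swimming array. Cholesterol synthesis showed nothing of this size: none of 26 genes was past 2-fold and the median was -0.07.

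Brown fat genes differed in both directions. Ucp1, the uncoupling protein that makes brown fat warm, had scaled signals of 232, 4417 and 686 on the nonswimming, swimming and Chlorella arrays. Slc27a2, a fatty acid transporter, had 174, 684 and 196, and Otop1, a proton channel, had 21.6, 126 and 49.0. These 3 were highest on the swimming array, and Ucp1 had a ratio of -2.69 ± 0.20. Cidea, another brown fat marker, had 13300 and 6784 on the swimming arrays, just short of 2-fold at -0.97 ± 0.20. Ppargc1a, the coactivator PGC-1alpha, had instead 1528, 1245 and 1882, and Ppargc1b had 960, 839 and 1440, so these were higher with Chlorella, short of 2-fold. The brown fat list had 6 of 21 genes lower and 1 higher, and its median of -0.32 became 0.03 with the stricter filter and 0.07 with the authors' own values.

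Genes of the kidney tubule were among the lower ones, although the labels give muscle. In the kidney list 11 of 15 measured genes were at least 2-fold lower, none was higher by that size and the median was -2.06. Kap, the androgen-regulated protein of the proximal tubule, had scaled signals of 1450, 8932 and 2066 on the nonswimming, swimming and Chlorella arrays. Miox, which breaks down inositol, had 213, 2651 and 378, and Umod, uromodulin of the thick ascending limb, 35.8, 244 and 17.6. All 3 were highest on the swimming array. Slc34a1, a phosphate transporter, had 59.4, 580 and 145, and Kcnj1, a potassium channel, 10.5, 109 and 12.6. Pvalb, in the list because distal tubules make it, is also a protein of fast muscle fibres and had 56145 and 68648.

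**Figure D2:**
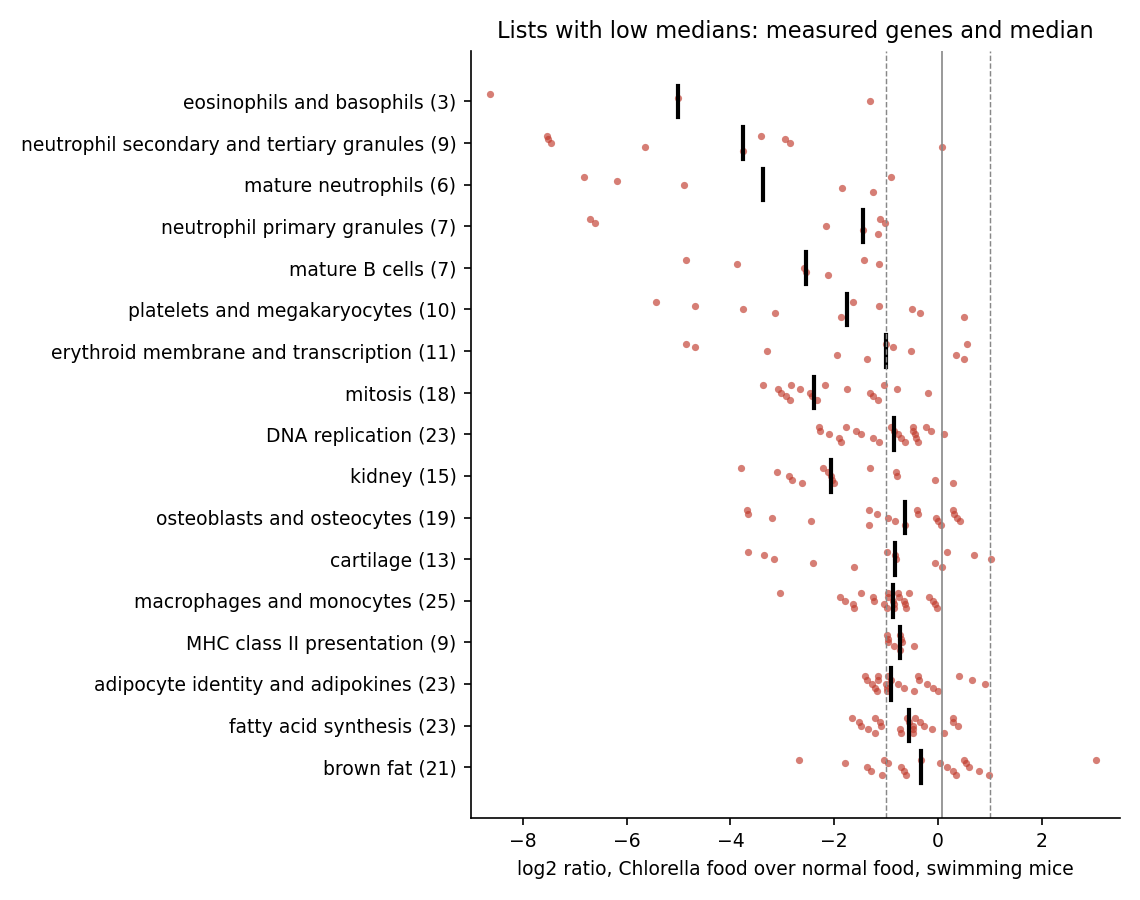
Log2 ratio of Chlorella over normal food in swimming mice (horizontal) for 17 gene lists (vertical, number of measured genes in brackets), 1 point per gene and a black bar at the list median, with the median of all genes (0.08) as a grey line and 2-fold dashed. List medians run from -5.00 for eosinophils and basophils, with only 3 measured genes, to -0.32 for brown fat, where 1 gene, Zic1, lies at 3.05.

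Summed cell type markers describe the same genes in another way, since 185 of the 189 markers are also members of the lists, and they are no separate support. Of the 12 neutrophil markers 10, 12 and 8 were well above background on the nonswimming, swimming and Chlorella arrays. For 12 B cell markers the sums of scaled signals were 711, 2746 and 625, and for 12 erythroid markers 1059, 5258 and 646. Adipocyte markers summed to 167158, 276501 and 185860. Markers of osteoblasts and osteocytes summed to 20698, 22658 and 24402 and those of brown adipocytes to 133841, 160007 and 185303, both highest with Chlorella, although their median ratios were -0.68 and -0.62. The brightest genes set these sums, Col1a1 in the former and Cox7a1 in the latter, and both are also made by other cells of muscle. Macrophage markers summed to 5272, 4649 and 3187, tendon and fibroblast markers to 176182, 132451 and 132304, and endothelial markers to 16307, 15031 and 17546. Of the B cell markers 8, 12 and 6 were well above background on the nonswimming, swimming and Chlorella arrays, of the erythroid ones 8, 12 and 4, and of the kidney ones 6, 8 and 6. The part of these cell types in the results above was not tested. Leaving out the genes of the blood, immune, bone, fat and kidney lists, which was tried once the data had been seen, gave 209 higher and 606 lower genes past 2-fold.

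**Figure D3:**
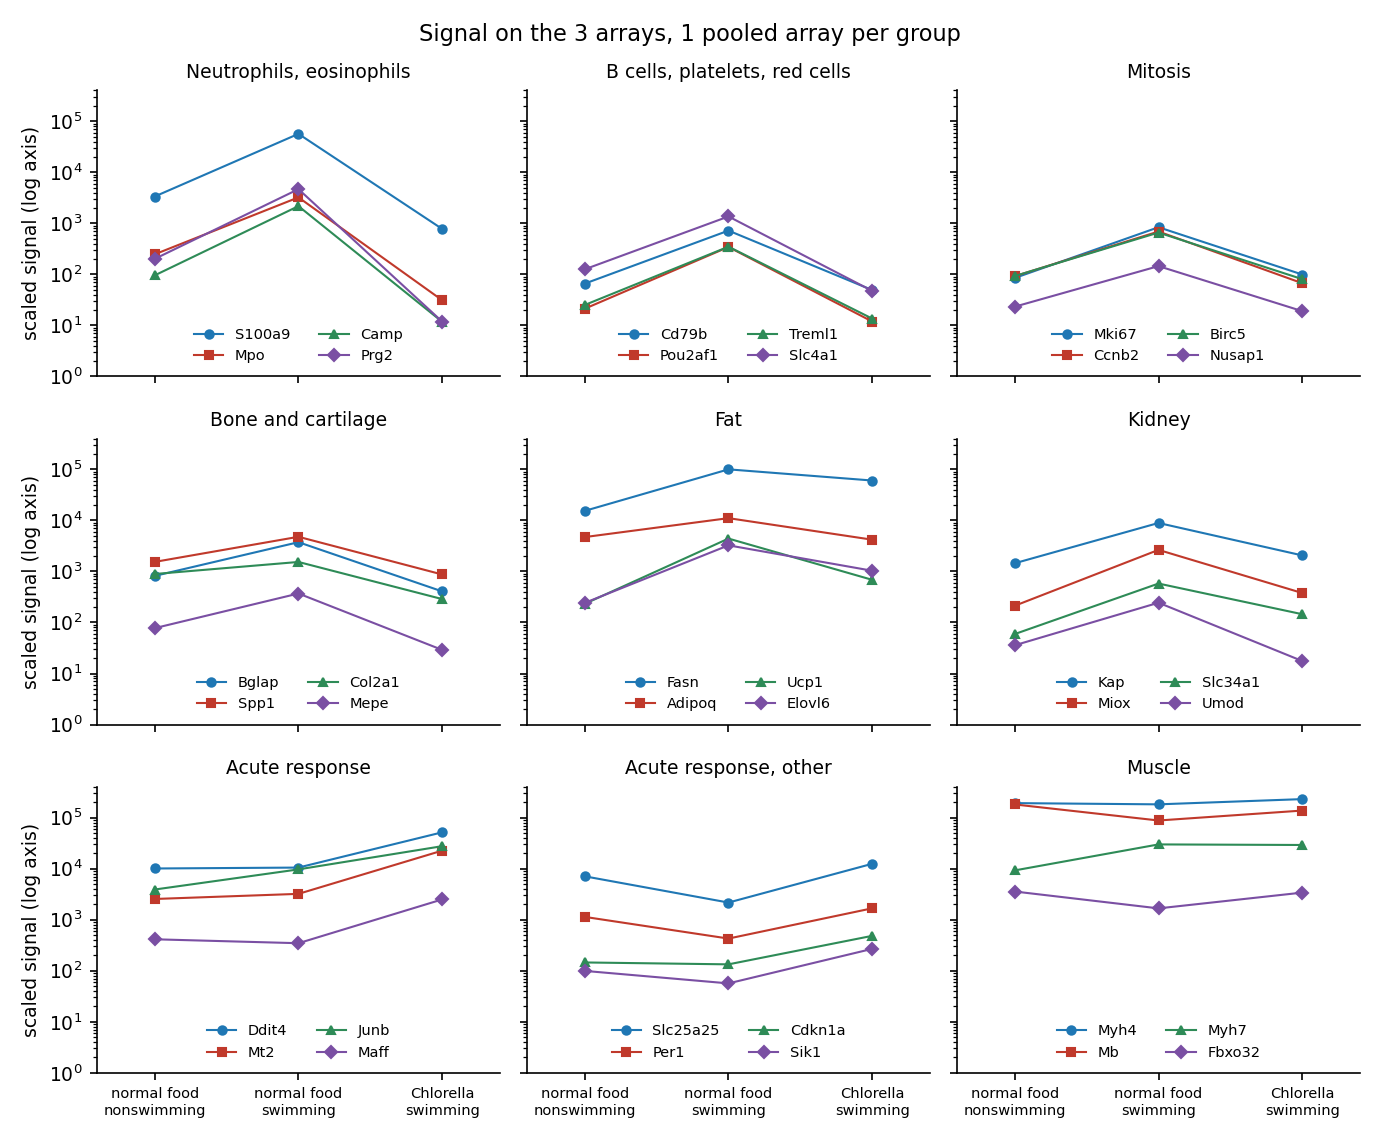
Scaled signal (vertical, log axis) of 36 genes on the 3 arrays (horizontal), 1 pooled array per group, in 9 panels by gene group, with lines joining the values of 1 gene. The blood cell, mitosis, bone, fat and kidney genes drawn peak on the normal food swimming array, as in Mpo with 246, 3215 and 30.9, while acute response genes are highest on the Chlorella array, as in Maff with 414, 346 and 2500.

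Of the groups of lists, those of the acute response most often held genes at least 2-fold higher with Chlorella. Across the acute response lists the median was 0.25, with 36 of 266 measured genes past 2-fold on the higher side and 5 on the lower. These lists include genes switched on by glucocorticoids, by cyclic AMP and by growth factors, and several genes belong to more than 1 of them. Stress pathways, atrophy, and insulin and IGF signalling are also among the lists, and few of their genes were past 2-fold. Lcn2, Egr1, Hp, Orm1 and Psat1 were the 5 lower ones, of which Egr1 is named after its values were seen.

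Glucocorticoid-responsive genes had a median of 0.83, and 17 of 37 were past 2-fold on the higher side and 1 on the lower. Ddit4, which restrains mTORC1, had scaled signals of 10099, 10524 and 51689 on the nonswimming, swimming and Chlorella arrays. Its signal was thus alike on both normal food arrays and 4.91-fold higher with Chlorella than on the swimming one. Arrdc2, an arrestin-like protein, had 301, 187 and 1014, and Cdkn1a, the cell cycle inhibitor p21, had 145, 133 and 483. Cebpd, a C/EBP transcription factor, had 5644, 4183 and 12486. Fkbp5 and Tsc22d3, which are classical targets of the glucocorticoid receptor, were closer to 2-fold on their brightest probes. Fkbp5, the co-chaperone of that receptor, had 237, 171 and 390, a log2 ratio of 1.19 ± 0.20, or 1.73 with the mean over probes. Tsc22d3, the leucine zipper protein GILZ, had 9204, 6204 and 12503, a ratio of 1.01 ± 0.20. The lower member, Lcn2, is also a neutrophil granule gene, with 14.9, 191 and 26.4.

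Metallothioneins, small proteins that bind zinc and copper, stood apart from the rest of zinc handling. Mt2 had scaled signals of 2550, 3213 and 22611 on the nonswimming, swimming and Chlorella arrays, and Mt1 had 1703, 2634 and 10622. Both were highest on the Chlorella array, with ratios of 2.82 ± 0.20 and 2.01 ± 0.20. Mt3 and Mt4, the forms of brain and epithelium, had ratios of -0.01 and 0.09. None of the other measured members of the list was past 2-fold: Slc30a1, a zinc exporter that responds to zinc like the metallothioneins, had 285, 258 and 280, Mtf1, the zinc-sensing transcription factor, had 346, 327 and 347, with probes of both signs, and Slc30a2 had 1434, 1383 and 1969. Slc39a8, a further member, was not well above background with Chlorella and was at least 2-fold lower by its bound. The list's median was 0.09.

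**Figure D4:**
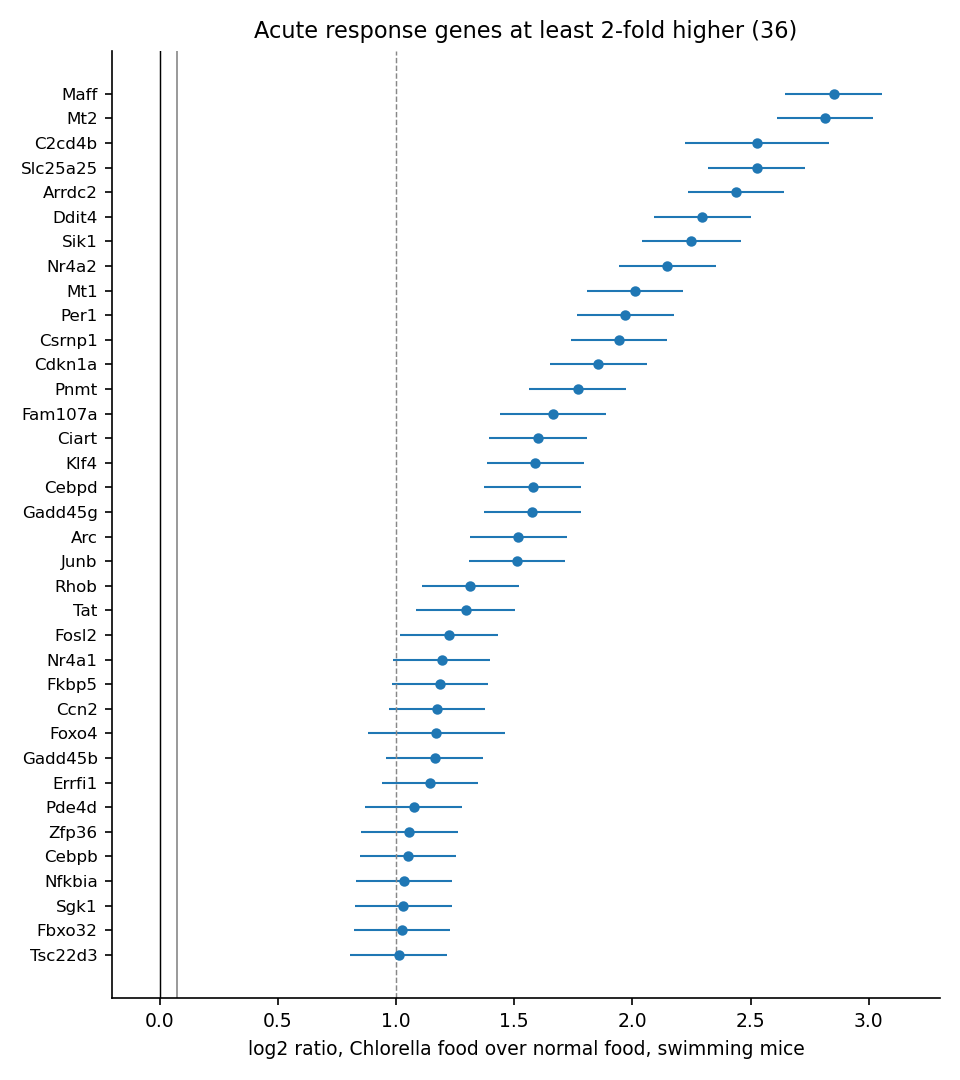
Log2 ratio of Chlorella over normal food in swimming mice (horizontal) of the 36 acute response genes at least 2-fold higher (vertical), as points with the scanner error of the ratio as bars, with 0 solid, the median of all genes (0.08) in grey and 2-fold dashed. The values run from 1.01 for Tsc22d3 to 2.85 for Maff.

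Few circadian clock genes were past 2-fold. Of 23 measured genes 2 were at least 2-fold higher, none was lower by that size and the median was 0.43. Per1, a repressor of the clock that glucocorticoids and cyclic AMP also induce, had scaled signals of 1136, 427 and 1674 on the nonswimming, swimming and Chlorella arrays. Ciart, another repressor, had 74.1, 51.2 and 155. Both were lowest on the normal food swimming array and highest with Chlorella, with ratios of 1.97 ± 0.20 and 1.60 ± 0.21. The activators differed by less than the scanner error, with Arntl at 318 and 304 and Clock at 522 and 552. The labels give no time of day for the sampling.

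Immediate-early genes, which cells transcribe within minutes of a stimulus, were higher in part. Their median was 0.45, and of 37 measured genes 14 were past 2-fold on the higher side and 1, Egr1, on the lower. Maff, a small Maf factor, had scaled signals of 414, 346 and 2500 on the nonswimming, swimming and Chlorella arrays, a 7.22-fold difference between the swimming arrays. Csrnp1 had 500, 451 and 1734, and Junb had 3907, 9699 and 27642. Fos had instead 469, 568 and 389 and Fosb 63.1, 23.1 and 20.3, so Fos and Fosb were not among the genes higher with Chlorella. Egr1, a zinc finger factor, had 978, 2543 and 1255, and Myc, whose probes differed in sign, had 188, 192 and 224. Of the AP-1 genes given here Junb was thus higher and Fos was not.

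Targets of cyclic AMP and the NR4A nuclear receptors were higher with few exceptions. In that list 20 of 22 measured genes were above 0 and 8 were at least 2-fold higher, with none lower by that size and a median of 0.75. Nr4a1 had scaled signals of 30740, 25483 and 58272 on the nonswimming, swimming and Chlorella arrays, and Nr4a2 had 142, 83.3 and 369. Sik1, a kinase that damps cyclic AMP signalling, had 99.3, 56.5 and 269. Slc25a25, a calcium-dependent carrier of ATP in mitochondria, had 7096, 2170 and 12488, and its 3 probes gave ratios between 2.37 and 2.52. These genes were lowest on the normal food swimming array, so that the ratio holds a low value there as well as a high one with Chlorella. C2cd4b had a ratio of 2.53 ± 0.30 on dim signals of 9.21 and 53.1, and 0.85 with normexp background correction.

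Promoters of the higher genes are shown in the same way. Capitals mark only the elements named below for each gene. Other matches, such as CCAAT in Ciart and Per1, are left in small letters. The cyclic AMP element is TGACGTCA, the E-box of the clock is CACGTG, and the core of the metal response element is TGCACNC or TGCGCNC. In Mt2 the capitals mark 3 metal cores, 223, 128 and 50 bases before the start. For Maff, the second of 3 promoters in the table, they mark 1 cyclic AMP element at 29 and 1 E-box at 191. In Ciart they mark 3 E-boxes, at 116, 58 and 44, and in Per1, the first of 2 promoters, 1 E-box at 166.
Mt2, chr8:94172368-94172617, plus strand: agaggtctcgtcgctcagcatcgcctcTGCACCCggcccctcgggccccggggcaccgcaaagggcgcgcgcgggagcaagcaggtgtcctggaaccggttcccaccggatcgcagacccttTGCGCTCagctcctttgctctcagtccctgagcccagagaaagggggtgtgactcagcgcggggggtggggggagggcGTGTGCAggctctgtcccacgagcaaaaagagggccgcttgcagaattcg
Maff, chr15:79347270-79347519, plus strand: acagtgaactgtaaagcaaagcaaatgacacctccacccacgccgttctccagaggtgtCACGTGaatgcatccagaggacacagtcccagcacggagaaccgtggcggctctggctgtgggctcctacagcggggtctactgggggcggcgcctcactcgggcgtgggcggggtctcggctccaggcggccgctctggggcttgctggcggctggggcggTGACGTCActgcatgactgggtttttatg
Ciart, chr3:95882229-95882478, minus strand: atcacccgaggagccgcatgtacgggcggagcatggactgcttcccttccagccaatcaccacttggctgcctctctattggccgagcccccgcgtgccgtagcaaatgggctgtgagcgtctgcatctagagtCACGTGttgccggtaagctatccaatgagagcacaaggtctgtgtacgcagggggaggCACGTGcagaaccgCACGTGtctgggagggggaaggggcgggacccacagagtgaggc
Per1, chr11:69098699-69098948, plus strand: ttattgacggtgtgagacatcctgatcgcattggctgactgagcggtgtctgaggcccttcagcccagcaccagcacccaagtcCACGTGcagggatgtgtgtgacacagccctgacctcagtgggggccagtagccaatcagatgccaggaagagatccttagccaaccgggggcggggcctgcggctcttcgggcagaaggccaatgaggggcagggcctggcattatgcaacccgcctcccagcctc
Over the clock list 6 of 19 genes held the E-box in any of their promoters, 31.6%, against 9.66% of measured genes and 6.86% of all. In the immediate-early list 4 of 30 held the cyclic AMP element, 13.3%, against 2.86% and 1.77%, and 33.3% held the E-box. The metal core was found for 8 of 14 genes of the metallothionein and zinc list, 57.1%, against 33.5% and 23.8%. It was as frequent in the clock list, 63.2%, and in the NR4A list, 52.6%. The glucocorticoid half-site AGAACA was found for 15.2% of genes of the glucocorticoid list, against 13.3% of measured and 18.2% of all genes. Of the genes at least 2-fold higher with an entry, 7 of 120 held the cyclic AMP element, 5.83%, and of those at least 2-fold lower 4 of 542, 0.738%.

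Other stress pathways showed few members past 2-fold. The integrated stress response list had a median of 0.13, with 2 of 29 measured genes past 2-fold on the higher side and 1 on the lower, and neither Ddit3, with 289 and 256 on the swimming arrays, nor Atf4, with 1336 and 1240, was higher with Chlorella. Psat1, a serine synthesis enzyme, had scaled signals of 140, 238 and 96.0 on the nonswimming, swimming and Chlorella arrays. Slc7a11, the cystine transporter, was well above background on neither normal food array and had 27.8 with Chlorella, at least 5.2-fold higher than on the swimming array, and is named after its values were seen. None of 29 genes of the unfolded protein response and heat shock was past 2-fold, and Hspa5, the chaperone BiP, had 7408, 7505 and 8903. In the hypoxia list Ddit4 was the 1 gene of 29 past 2-fold, and Vegfa had 2089 and 2518. IL-6 family and SOCS genes had 2 of 21 higher and 2 lower, with a median of 0.05 that was below 0 with quantile normalization, normexp and no filter.

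Atrophy genes were higher in part. The FoxO and atrophy list had a median of 0.36, and of its 26 measured genes 3 were past 2-fold on the higher side and none on the lower. Fbxo32, the ubiquitin ligase atrogin-1, had scaled signals of 3572, 1669 and 3400 on the nonswimming, swimming and Chlorella arrays. Trim63, the ligase MuRF1, had 9368, 10540 and 16721. With Chlorella Fbxo32 was thus about as high as without swimming, at a ratio of 1.03 ± 0.20 to the swimming array, while Trim63 was above both other arrays at 0.67 ± 0.20. Foxo1 had 788, 820 and 1454. Insulin and IGF signalling had none of 27 genes past 2-fold, and Igf1 had 605, 744 and 509.

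Muscle fibre genes differed by little. Over the muscle lists 3 of 116 measured genes were past 2-fold on the higher side and 2 on the lower, with a median of 0.32, where all genes had 0.08 and the 3877 genes with the strongest signals 0.13. All 21 fast-fibre genes were above 0 with a median of 0.30, but quantile normalization brought that median to 0. Myh4, the myosin of the fastest fibres, had scaled signals of 193057, 182610 and 231323 on the nonswimming, swimming and Chlorella arrays, and Myh1 had 100033, 66322 and 108109. Myh2, the myosin of fast oxidative fibres, had 119919, 87743 and 137647. The last pair was lowest on the swimming array, with ratios of 0.70 and 0.65. Genes of slow fibres and heart had a median of 0.04, which was below 0 in 5 of 7 alternative settings. Myh7, slow myosin, had 9262, 29931 and 29179, so both swimming arrays were alike there and above the nonswimming one. Mb, myoglobin, had 181789, 88112 and 137916, and Mybpc1, slow myosin-binding protein C, had 20488, 8783 and 18835, the 1 slow-fibre gene at least 2-fold higher. Sln, sarcolipin, which inhibits the calcium pump, was the 1 lower gene, with 376, 1756 and 632.

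Excitation and innervation genes leaned to the higher side. The neuromuscular junction list had 20 of 23 genes above 0 and the largest median of the muscle lists, 0.48, with none past 2-fold. Chrna1, a subunit of the acetylcholine receptor, had scaled signals of 1299, 1163 and 1547 on the nonswimming, swimming and Chlorella arrays, and Chrnd, another subunit, 18.8, 13.8 and 26.0. Calcium handling had a median of 0.30 over 26 genes. Ryr1, the calcium release channel, had 40322, 42317 and 61878, and Cacna1s, the voltage sensor that opens it, had 105980, 97878 and 137910. These genes were highest on the Chlorella array, at ratios of 0.55 and 0.49. Camk2a, a calcium-dependent kinase, had 10589, 4930 and 10645 and was the 1 gene of the list at least 2-fold higher. Among myogenic factors Hes1, a Notch target, had 240, 213 and 591, and Id2, an inhibitor of differentiation, 237, 513 and 244, the 1 gene past 2-fold on each side of 28. Myod1 had 393 and 404 on the swimming arrays and Myog 664 and 1116.

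Energy metabolism showed small and even differences. None of 58 respiratory chain subunits was past 2-fold, 54 were above 0 and the median was 0.30, which was 0.09 with quantile normalization. Ndufa1, a subunit of complex I, had scaled signals of 28947, 34390 and 42802 on the nonswimming, swimming and Chlorella arrays, and Cox7a1 of complex IV had 88562, 83659 and 106506. Glycolysis and glycogen genes had none of 32 past 2-fold and a median of 0.29, or 0.07 with quantile normalization. Hk2, hexokinase of muscle, had 22666, 12467 and 19658, and Slc2a4, the insulin-regulated glucose transporter, had 35770, 29232 and 35184. Citric acid cycle and fatty acid oxidation genes had medians of 0.12 and 0.11, which were below 0 with quantile normalization, and none was past 2-fold. Cs, citrate synthase, had 75472 and 88866 on the swimming arrays, and Cpt1b, the gate of fatty acids into mitochondria, 8606 and 11824. The mitochondrial carriers held the widest range, from Ucp1 at -2.69 to Slc25a25 at 2.52, with 1 of 35 at least 2-fold higher and 3 lower. Of 32 amino acid genes 2 were past 2-fold, both lower, and Ass1, an enzyme of arginine synthesis, had 771 and 222 on the swimming arrays.

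**Figure D5:**
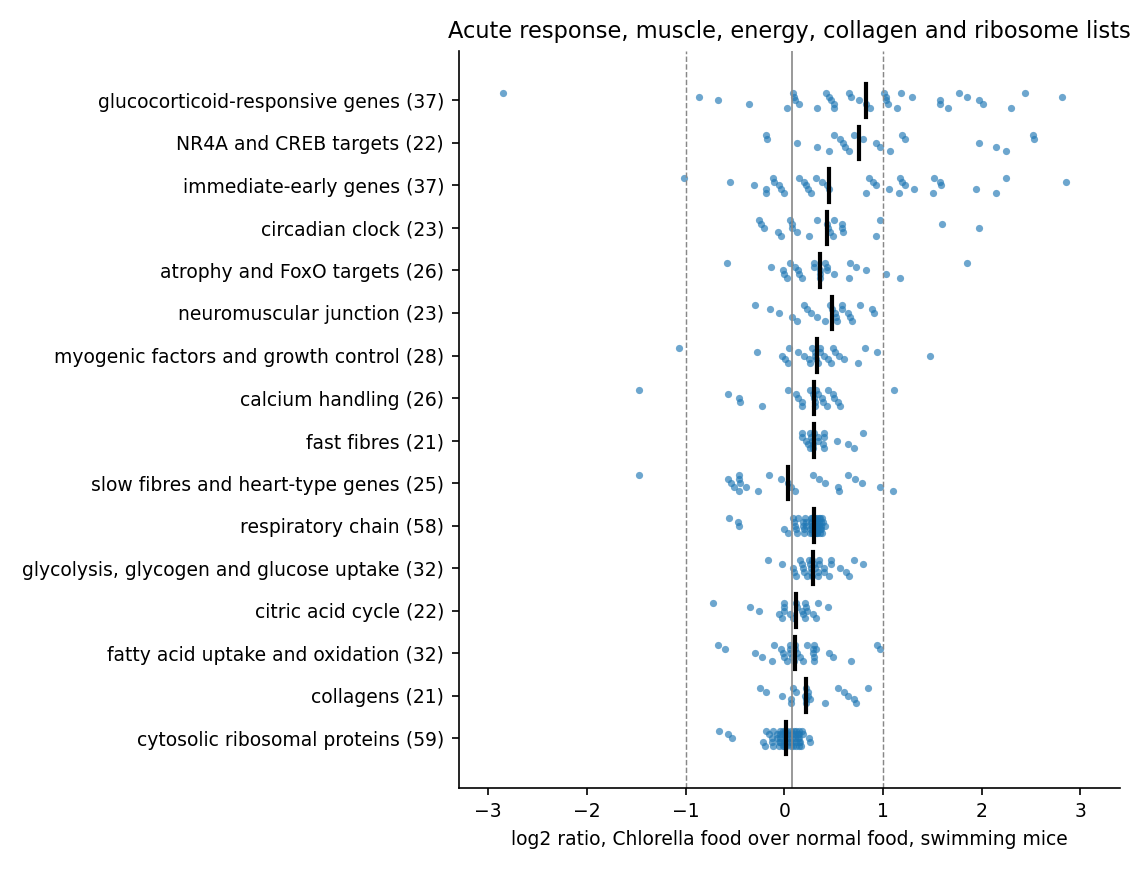
Log2 ratio of Chlorella over normal food in swimming mice (horizontal) for 16 gene lists of the acute response, muscle, energy metabolism, collagens and ribosomal proteins (vertical, number of measured genes in brackets), 1 point per gene and a black bar at the list median, with the median of all genes (0.08) in grey and 2-fold dashed. Medians run from 0.02 for cytosolic ribosomal proteins to 0.83 for glucocorticoid-responsive genes, and no respiratory chain or fast-fibre gene lies outside 2-fold.

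Genes of growth showed no member past 2-fold. This held for 59 cytosolic ribosomal proteins, with a median of 0.02, for 29 genes of ribosome biogenesis, with 0.12, and for 31 proteasome subunits, with 0.17. The ribosomal protein median was below 0 with quantile normalization, normexp, the authors' values and the mean over probes. Rpl3 had scaled signals of 4380, 6211 and 3931 on the nonswimming, swimming and Chlorella arrays, and Npm1, nucleophosmin, had 5898, 6115 and 6049.

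Lists for the handling of compounds in Chlorella held 15 of 133 measured genes past 2-fold on the lower side and none on the higher, apart from Slc7a11, which the antioxidant list shares and which has a bound. Antioxidant and NRF2 target genes had 4 of 35 lower and a median of -0.01. Nqo1, a standard NRF2 target, had scaled signals of 600, 503 and 502 on the nonswimming, swimming and Chlorella arrays, and Gclc, which limits glutathione synthesis, had 330, 323 and 341. Hmox1, haem oxygenase, had 418, 753 and 562. No difference beyond the scanner error was seen in Nqo1 or Gclc between the swimming arrays. G6pdx, which makes NADPH and serves fatty acid synthesis too, had 649, 1714 and 670, and Gsta1, a glutathione transferase, 15.7, 83.5 and 17.9. In the xenobiotic list 4 of 24 were lower, with a median of -0.26. Cyp1a1, a target of the aryl hydrocarbon receptor that plant compounds can induce, had dim signals of 25.7, 20.5 and 26.2, and Cyp4b1 had 570, 2028 and 727. Cyp1b1, of the same family as Cyp1a1, lay on the other side with the lowest ratio of that list, -1.72.

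Carotenoid and retinoid genes had a median of -0.04, with 2 of 25 lower by 2-fold or more. Scarb1, the receptor that takes up carotenoids, had scaled signals of 652, 836 and 892 on the nonswimming, swimming and Chlorella arrays. Iron genes had 2 of 26 lower and a median of -0.20, with Tfrc, the transferrin receptor, at 1361, 1111 and 1168, Slc40a1, the iron exporter, at 1302, 1200 and 1194, and Tfr2, made mainly in liver and red cell precursors, at 39.7, 91.8 and 35.6. For cobalamin, folate and one-carbon metabolism 3 of 29 were lower and the median was -0.07. Tcn2, the carrier of cobalamin in blood, had 338, 475 and 297, and Cd320, its receptor, whose probes differed in sign, 670, 650 and 663. Folr1, a folate receptor of kidney and other epithelia, had 47.6, 174 and 55.5, and Tyms, which uses folate in DNA synthesis, 149, 297 and 106. Uptake and transport genes were thus divided: Folr1 and Tfr2 were past 2-fold on the lower side, with ratios of -1.65 and -1.37, Tcn2 was at -0.68, and Cd320, Scarb1, Tfrc and Slc40a1 lay within the scanner error of equality.

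Genes of other tissues were mostly near equality. Liver plasma proteins had 1 of 22 higher and 2 lower, with a median of -0.22, and Alb, albumin, had scaled signals of 2339, 1778 and 1363 on the nonswimming, swimming and Chlorella arrays. Peripheral nerve genes had a median of 0.07. Epidermal keratins were not uniform. Krt5 was high on the nonswimming array and low on both swimming arrays, with 270, 11.8 and 7.90. Krt14 had 110, 4.01 and 13.6, and was well above background with Chlorella but not on the normal food swimming array. Krt10 had 1118, 467 and 548 and differed less. Endothelial genes had 1 of 28 past 2-fold, Sox17, a factor of arterial endothelium, with 450, 338 and 885, and their median was 0.27. Cdh5, the adhesion protein of endothelium, had 1423, 1181 and 1649.

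Genes that record position along the body and limb had 4 of 36 members at least 2-fold higher and none lower, with a median of 0.12. Zic1, a zinc finger factor of dorsal and anterior structures, had the highest ratio of the comparison under the naming rule, with scaled signals of 29.3, 13.5 and 112 on the nonswimming, swimming and Chlorella arrays. Its 2 probes gave ratios of 3.05 and 3.38, and the one used is placed at 90989346 to 90989405 of chromosome 9 in the scanner file. Tbx3, a limb factor, had 667, 481 and 974, and Hoxa13, of the distal limb, 10.2, 6.97 and 14.3. Zic1, Tbx3 and Hoxa13 were lowest on the swimming array and highest with Chlorella, but the signals of Zic1 and Hoxa13 on the swimming array were dim, and with normexp background correction their ratios fell from 3.05 to 1.24 and from 1.04 to 0.26. Hoxa9 and Hoxa10 differed little between the arrays: Hoxa9 had 168, 192 and 185, and Hoxa10 had 450, 457 and 524. The labels do not say which part of a muscle was taken in each group.

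Of the 12 genes with the highest ratios under the naming rule, 5 had signals under 10 on the normal food swimming array. Cfap100, a protein of cilia, had scaled signals of 12.9, 8.63 and 66.5 on the nonswimming, swimming and Chlorella arrays, Il12rb1, a cytokine receptor chain, 8.53, 9.34 and 60.4, and Slc36a4, an amino acid transporter, 18.4, 7.73 and 40.0. Mroh8 had 7.51, 6.32 and 30.1. The lowest scaled signal well above background on that array was 5.34, so the size of these ratios rests on dim spots. With normexp background correction, which pulls dim values together, Il12rb1, Slc36a4 and Mroh8 had ratios of 0.96, 0.75 and 0.63, short of 2-fold. Among genes in none of the lists, 166 of 14093 were past 2-fold on the higher side and 583 on the lower, with a median of 0.08, while the listed genes had 46 and 171 of 1415.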

How the data were processed

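RNA of muscle, pooled from 10 mice per group, was hybridised to 1 single-colour Agilent array per group. The deposited scanner files hold intensity values per spot, which Agilent Feature Extraction 9.5 had background-subtracted and detrended, per the file headers and the submitters' processing notes. Controls and outlier-flagged spots were dropped and repeat spots averaged. The processed signal was taken on the log2 scale, less the 75th percentile of its array. Genes were named through accessions and the RefSeq table of GRCm38.p6 (22948 probes matched on accession, 6658 on symbol and 3109 on an earlier symbol, and 8454 kept the name in the file), and the brightest probe stood for a gene. The authors' deposited value table holds log2 values of 13683 spots, whose differences between the swimming arrays had r of 0.82 with those of the scanner files. The centre of each probe in it is unknown, and its column medians were 0.008, -0.005 and 0.010. It was used as an alternative alone.

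The members of 67 gene lists, the lists themselves and the alternatives were chosen with earlier results of these data known, so the lists describe and support nothing. The text names genes from the following set, of which a part is given: the 12 highest and 12 lowest ratios among genes with a symbol past 2-fold whose probes had 1 sign, the first 3 genes of each list, the 4 members of each list farthest from 0 past 2-fold, every member of lists of up to 16 genes, and the cell type markers. Exceptions are marked in the text. Probes spotted 10 times had a median SD of 0.058 to 0.066 log2 between spots, and the scanner error was 10.0% of the signal, and precision is limited by having 1 array per group. The scaling and the 2-fold limit alone were tried on simulated data, in which 200 of 200 probes set 4-fold apart were recovered and 0 of the others passed 2-fold. The simulated noise was proportional to the signal, without background noise on dim spots or differences between pools. That outcome therefore checks the arithmetic and says nothing on the reliability of the ratios. Python 3.11.15, pandas 2.3.3 and limma 3.58.1 (normexp) were used. Probe coordinates are those of the scanner files, whose build the sources do not name. Promoter windows come from RefSeq, and genes without an entry were not used there. Values of some measured genes are not reported here.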

Additional observations from a re-analysis of the deposited data

How the results depend on the processing

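The counts of 212 higher and 754 lower genes past 2-fold depended on how dim probes were handled. Normexp background correction gave 52 and 302, no filter on dim probes gave 1233 and 1998, and the stricter filter gave 59 and 181 of 8886 genes. The counts stayed within 1.5 times with quantile normalization (254 and 694), median centring (212 and 755) and the mean over probes (211 and 756). The same held with the authors' table (144 and 564 of 12218 genes). A limit beyond the scanner error gave 212 and 754 again. Every gene past 2-fold also passed that limit, so it does not check the counts. Of the list medians, that of the erythroid list was 0.42 under the stricter filter, which keeps its bright members alone, and medians near 0 that took the other sign are given with their lists. Sizes of list medians depended on dim signals too: of 67 medians 17 moved by more than the scanner error with normexp, 16 of them ending nearer to 0, and 18 with the stricter filter, 9 of them nearer to 0. With normexp the median of secondary and tertiary granules went from -3.75 to -1.89, that of mature neutrophils from -3.37 to -1.61, of eosinophils and basophils from -5.00 to -3.10, of mitosis from -2.38 to -1.21, of mature B cells from -2.54 to -1.10, and of kidney from -2.06 to -1.35. Among 91 named genes past 2-fold none took the other sign in any setting that measured it, but normexp left 23 of them short of 2-fold, quantile normalization 5, and averaging over probes 4. With the authors' values 6 of 75 were short of it. Among these, Camk2a, Fbxo32, Tbx3 and Tsc22d3, all near 2-fold, were short of it in several settings, Mybpc1 was at 0.95 with quantile normalization, and Folr1, at -1.65, was at -0.94 with the mean over probes. Lower genes outnumbered higher ones in each of these settings. Dim signals limit the sizes most: of 754 lower genes 456 had a scaled signal under 50 with Chlorella, and of 212 higher ones 130 had one under 50 on normal food. No paired analysis was possible because each group has 1 pooled array, which also leaves no array to leave out.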
